A study of Mus musculus with 2 samples.

Results

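The genes examined here are 10 members of the leptin, insulin and BDNF signalling pathways, out of 21887 protein-coding genes of the mouse. They were taken as a named list: Lepr, Jak2, Stat3, Socs3, Ptpn1, Sh2b1, Insr, Irs2, Bdnf and Ntrk2. The binding data come from CUT&RUN, in which an antibody directs a nuclease to a chromatin protein and the released DNA is sequenced. Nuclei were isolated from the PVN (paraventricular nucleus, a hypothalamic centre of appetite control) of wild-type (WT) mice, with neurons as the labelled cell type. In one library the antibody recognised Otp (Orthopedia, a transcription factor with a homeodomain). The other used IgG, an antibody without a target. The labels give neither age nor sex nor the number of animals. With 1 library for each antibody there is no replicate check and no test across samples.

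Leptin and insulin are circulating signals of energy stores, and brain-derived neurotrophic factor (BDNF) is a neuronal growth factor that restrains feeding in the hypothalamus. Leptin binds a receptor without enzyme activity of its own, which acts through the kinase JAK2 and the transcription factor STAT3. Insulin and BDNF bind receptor tyrosine kinases that act through adaptor proteins on the PI3K and MAP kinase cascades. The series asks whether Otp binds at the promoter of the melanocortin receptor gene Mc4r. The signalling genes are other regulators of energy balance in the same lists of enriched regions.

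Of the 10 genes, 4 had an Otp region within 1 kb of an end: Jak2, Stat3, Irs2 and Ntrk2. In all 4 it lay at the start of the gene. Over all protein-coding genes, 27.2% had a region at an end. Among genes in the same length decile as each member, the share averaged 30.8%, so 4 of 10 is near the background. The IgG list held 0 regions inside these genes or within 100 kb of them, and 2.86% of all protein-coding genes had one. Bdnf had no Otp region inside or within 100 kb.

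The promoters of these 4 genes are shown because an Otp region lay on each. Each sequence is the 250 bases before a curated start in RefSeq (build GRCm38.p6, which mm10 denotes), 5′ to 3′ in the direction of transcription. Capitals mark the bases covered by the deposited Otp region. The windows are chr19:29251553-29251802 (plus strand) for Jak2, chr11:100939541-100939790 (minus strand) for Stat3, chr8:11008930-11009179 (minus strand) for Irs2 and chr13:58806319-58806568 (plus strand) for Ntrk2.
Jak2: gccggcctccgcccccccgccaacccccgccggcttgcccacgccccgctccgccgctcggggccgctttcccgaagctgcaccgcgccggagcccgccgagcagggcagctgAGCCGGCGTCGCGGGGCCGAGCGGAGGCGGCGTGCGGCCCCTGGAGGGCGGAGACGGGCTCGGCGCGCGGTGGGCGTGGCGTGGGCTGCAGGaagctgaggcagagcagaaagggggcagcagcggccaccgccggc
Stat3: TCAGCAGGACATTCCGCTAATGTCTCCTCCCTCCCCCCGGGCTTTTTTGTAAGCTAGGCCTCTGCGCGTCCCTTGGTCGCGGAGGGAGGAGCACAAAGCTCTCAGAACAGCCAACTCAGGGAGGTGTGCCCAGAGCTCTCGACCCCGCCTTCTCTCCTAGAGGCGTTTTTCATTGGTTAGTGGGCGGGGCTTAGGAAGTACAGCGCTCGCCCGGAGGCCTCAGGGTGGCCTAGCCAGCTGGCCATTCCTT
Irs2: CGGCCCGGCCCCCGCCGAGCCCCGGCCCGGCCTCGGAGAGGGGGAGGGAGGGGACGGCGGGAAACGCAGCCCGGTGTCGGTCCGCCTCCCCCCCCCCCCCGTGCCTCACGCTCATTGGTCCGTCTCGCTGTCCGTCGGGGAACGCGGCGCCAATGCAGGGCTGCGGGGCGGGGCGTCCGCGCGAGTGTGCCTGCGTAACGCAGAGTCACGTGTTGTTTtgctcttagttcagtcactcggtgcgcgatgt
Ntrk2: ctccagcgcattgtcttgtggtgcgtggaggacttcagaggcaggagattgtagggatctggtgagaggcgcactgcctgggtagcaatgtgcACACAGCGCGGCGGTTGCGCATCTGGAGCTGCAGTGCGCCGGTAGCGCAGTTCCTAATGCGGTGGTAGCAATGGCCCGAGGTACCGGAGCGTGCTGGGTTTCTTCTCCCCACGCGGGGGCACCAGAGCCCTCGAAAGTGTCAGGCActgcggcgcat
The region covered 92 of the 250 bases at Jak2, 250 at Stat3, 218 at Irs2 and 146 at Ntrk2. Over these covered bases the GC content was 83.7% at Jak2, 60.8% at Stat3, 75.7% at Irs2 and 65.1% at Ntrk2. The Stat3 and Irs2 regions reach beyond their windows, and the bases outside were not counted.

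The homeodomain core TAATTA was in none of the 4 windows, nor in any of the 17 windows of the 9 members with a curated start. Of all 21263 such windows of protein-coding genes, 4.31% held it on either strand, 2.07% of the 5936 with an Otp region within 1 kb of the start and 5.17% of the others. The shorter core TAAT, which TAATTA contains on both strands, was under the region at Stat3, 233 bp before the start, and at Ntrk2, 103 bp before it. It was in 49.4% of all windows, in 37.3% of those with an Otp region and in 54.0% of the others. The GC box GGGCGG was under the region at Jak2, Stat3 and Irs2, 92, 69 and 85 bp before the start, and not in the Ntrk2 window. It was in 42.6% of all windows, in 65.4% of those with an Otp region and in 33.8% of the others. Members without a region at a start held these letters too: TAAT at Lepr and Bdnf, and GGGCGG at Lepr, Ptpn1 and Bdnf. Outside the regions, GGGCGG was also in the Socs3 window and again in the Jak2 window. The cAMP response element TGACGTCA was in none of the members' windows, against 1.92% of all. A match describes letters in the window and does not show a bound site.

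In all, 24 Otp regions had their summit inside a member gene or within 100 kb of one, and 9 of the 10 genes had at least 1. Of all protein-coding genes, 74.5% had one. Of the 24, 4 lay at a gene end, 5 lay deeper inside a gene and 15 outside. Only 16 were nearest to an end of the member itself among protein-coding genes. The other 8 were nearer to another gene, and 6 of these lay within 1 kb of it. The farthest region counted lay 89767 bp from Sh2b1, and the nearest one left out lay 101408 bp from Ptpn1.

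**Figure D1:**
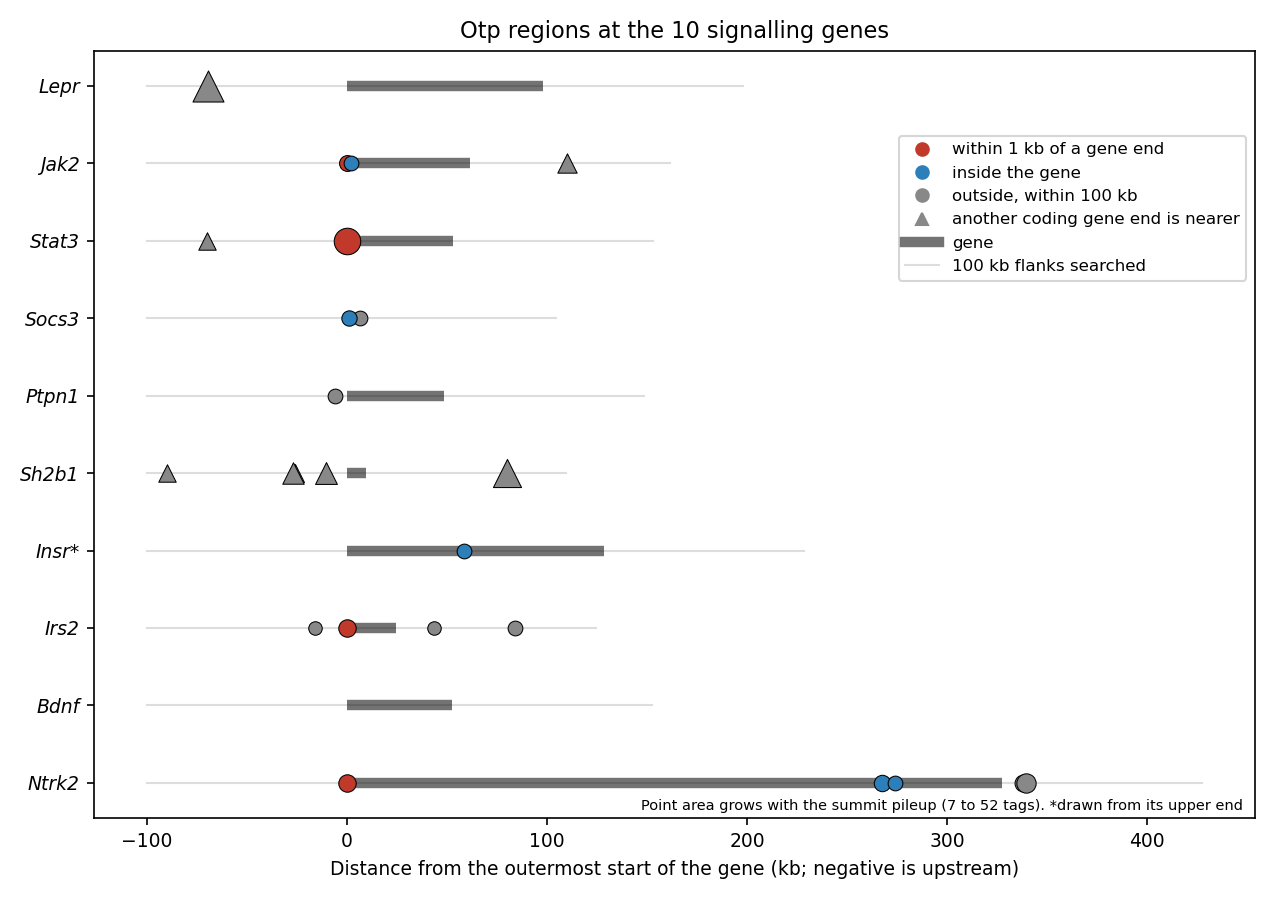
Otp regions drawn by distance from the outermost start of each gene in kb, in the direction of transcription. Dark bars are the genes, point area grows with summit pileup, and triangles mark regions nearer to another protein-coding gene. Insr, whose strand is not in the promoter table, is drawn from its upper end. Regions at a gene end are seen at Jak2, Stat3, Irs2 and Ntrk2, and Bdnf has none.

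Strength is given by the authors' fold enrichment and −log10 q and by the pileup, the number of sequenced tags stacked at the summit. All 24 regions had a pileup that could be worked out. It ran from 7 to 52 tags with a median of 13.5, against a median of 13 over all Otp regions. Fold enrichment ran from 3.88 to 17.2 with a median of 5.86, against 6.97 over all. The 8 regions nearer to another gene had a median of 20.5 tags, the 4 at the members' own ends 14 tags, and the 12 others nearest to a member 9 tags. Of the 4 regions with the most tags, those at Leprot, Nfatc2ip and Tufm were nearer to a neighbour, and the one at Stat3 was at the member's own start.

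**Figure D2:**
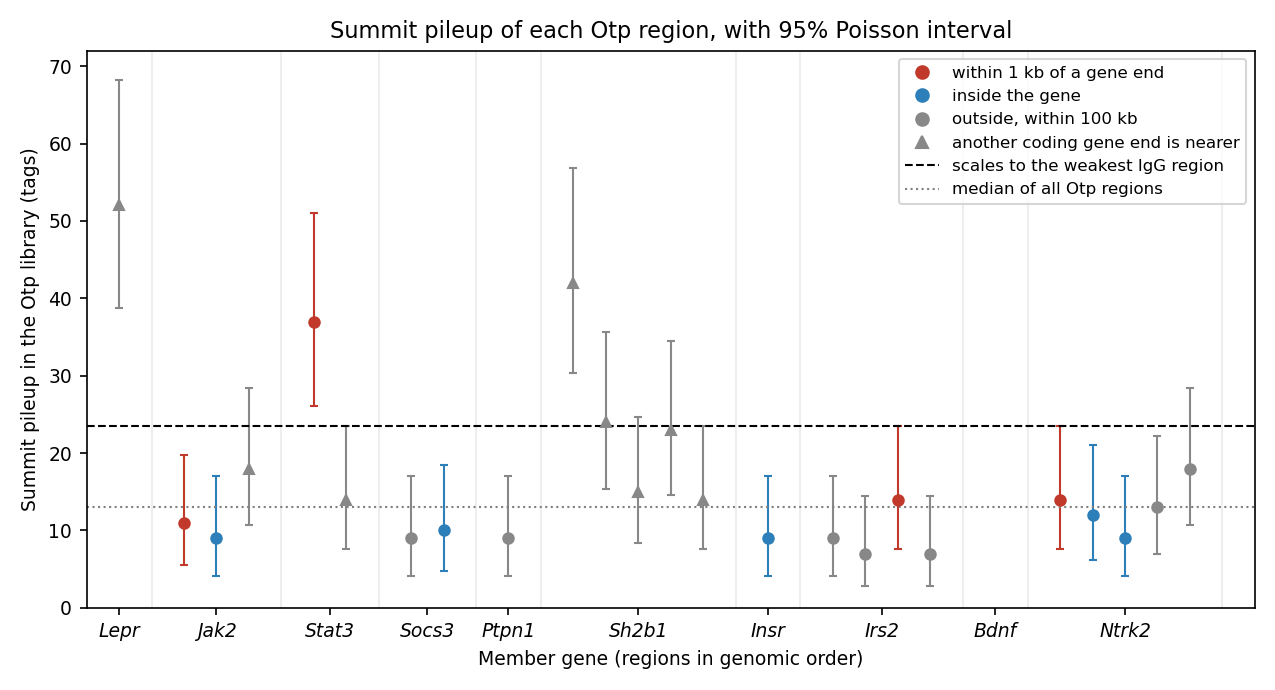
Summit pileup in tags of each Otp region in the single Otp library, by gene in genomic order, with 95% Poisson intervals that cover counting error only. Stat3 has 37 tags at its start, and the 52 tags plotted at Lepr and the 42 at Sh2b1 lie at the ends of neighbouring genes. The dashed line is the Otp pileup that scales to 4 tags in the IgG library, and the dotted line is the median of 13 tags.

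Lepr encodes the leptin receptor (gene ID 16847, chromosome 4, positions 101717137 to 101815352). It had no region at an end or inside. Its single region, at positions 101647147 to 101647766, had 52 tags (95% Poisson interval 38.8 to 68.2), a fold enrichment of 12.8 and a −log10 q of 39.7, rank 352 of 11379. Its summit lay 69693 bp upstream of Lepr and 339 bp from an end of Leprot, the leptin receptor overlapping transcript gene. Leprot encodes a separate membrane protein that limits leptin receptor at the cell surface. Of the genes in the same length decile, 33.8% had a region at an end, and 84.0% had at least 1 region inside or within 100 kb. The curated starts of Lepr were 69963 and 70462 bp from that summit.

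Jak2 encodes the tyrosine kinase bound to the leptin receptor (gene ID 16452, chromosome 19, positions 29251803 to 29313095). The region at its start, at positions 29251666 to 29251757, had its summit 96 bp upstream. It had 11 tags (5.49 to 19.7), a fold enrichment of 4.74 and a −log10 q of 3.74, rank 10362. The fold is the ratio of the pileup to the local background, with 1 added to each. That background was 1.53 tags here and 0.512 tags genome-wide. A second region lay 2176 bp into the gene with 9 tags (4.12 to 17.1) and a −log10 q of 2.10, rank 11348, close to the smallest deposited value of 2.01. The third, with 18 tags (10.7 to 28.4), lay 191 bp from Cd274, an immune checkpoint ligand, and 48821 bp past Jak2.

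Stat3 encodes the transcription factor that JAK2 activates (gene ID 20848, chromosome 11, positions 100886806 to 100939594). It had the strongest region at a member's own end. That region spanned 443 bp, at positions 100939401 to 100939843, with 37 tags (26.1 to 51.0), a fold enrichment of 12.7 and a −log10 q of 29.4, rank 639. Its summit lay 65 bp outside the outermost end and 119 bp upstream of the curated start. A second region of 14 tags (7.65 to 23.5) lay 69793 bp away, 35 bp from Atp6v0a1, a subunit of the vacuolar proton pump.

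Socs3 encodes the inhibitor that STAT3 induces and that shuts leptin signalling off (gene ID 12702, chromosome 11, positions 117966079 to 117970336). The region at positions 117969178 to 117969257 lay inside the gene, 1147 bp from its outermost end and so just beyond the 1 kb window. The curated start lies further in, and the summit was 177 bp downstream of it. Counted by curated starts, 5 of the 9 members with one had a region within 1 kb, Socs3 added to the other 4. The share was 29.5% of the 17492 protein-coding genes with such a start, without matching on length or sequence. The region had 10 tags (4.80 to 18.4), a fold enrichment of 5.63 and a −log10 q of 4.74. A second region of 9 tags lay 2462 bp past the other end, 5749 bp downstream of the curated start.

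Ptpn1 encodes PTP1B, the phosphatase that removes phosphate from JAK2 and the insulin receptor (gene ID 19246, chromosome 2, positions 167930750 to 167979385). Its single region, at positions 167924934 to 167925016, lay 5800 bp outside the gene and 7377 bp upstream of the curated start. It had 9 tags (4.12 to 17.1), a fold enrichment of 5.33 and a −log10 q of 4.09, rank 9836. Ptpn1 thus had no region within 5 kb of an end.

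Sh2b1 encodes an adaptor that raises JAK2 activity (gene ID 20399, chromosome 7, positions 126466993 to 126476650). It had 5 regions within 100 kb, none at its own ends or inside, in a stretch with 18 ends of other protein-coding genes. All 5 were nearer to another gene. The strongest had 42 tags (30.3 to 56.8), a fold enrichment of 17.2 and a −log10 q of 40.9, and lay 40 bp from Nfatc2ip. One of 24 tags (15.4 to 35.7) lay 23 bp from Tufm, the mitochondrial translation elongation factor, and 10598 bp from Sh2b1. One of 14 tags (7.65 to 23.5) lay 51 bp from Eif3c, a translation initiation factor subunit. The remaining 2, with 15 and 23 tags, lay 5189 and 4224 bp from an end of Atxn2l, which encodes an RNA-binding protein. Of the 500 genes with the same number of neighbouring ends, 21.6% had as many regions, and their median was 3.

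Insr encodes the insulin receptor (gene ID 16337, chromosome 8, positions 3150922 to 3279649). Its single region lay inside the gene at positions 3221110 to 3221223, 58476 bp from the nearer end. It had 9 tags (4.12 to 17.1), a fold enrichment of 5.35 and a −log10 q of 4.12, rank 9807. No other protein-coding gene end lay closer to this region. Of the genes in the same length decile, 48.6% had a region inside.

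Irs2 encodes an adaptor that couples the insulin receptor to PI3K (gene ID 384783, chromosome 8, positions 10984681 to 11008929). The region at its start, at positions 11008962 to 11009231, spanned 270 bp with its summit 94 bp upstream. It had 14 tags (7.65 to 23.5), a fold enrichment of 6.08 and a −log10 q of 6.57, rank 6782. Irs2 had 3 more regions, of 7, 7 and 9 tags, at 16222 bp upstream of the start and at 43460 and 84189 bp downstream of it, the last 2 beyond the far end of the gene. No end of another protein-coding gene lay within 100 kb of Irs2. Its 4 regions compare with a median of 2 among genes of the same length decile, of which 24.4% had as many.

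Bdnf encodes the ligand of TrkB (gene ID 12064, chromosome 2, positions 109674700 to 109727043). It had 0 Otp and 0 IgG regions inside or within 100 kb, and the nearest Otp region was 177372 bp away. None of its 7 curated starts had one within 1 kb. Of the genes in the same length decile, 17.7% had no region inside or within 100 kb. Among the 1218 genes like Bdnf with no other protein-coding gene end within 100 kb, 58.0% had none. A listed region here needs a minimum of stacked tags, and the smallest pileup in the Otp list was 6, so weaker signal would not be listed.

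Ntrk2 encodes TrkB, the receptor tyrosine kinase for BDNF (gene ID 18212, chromosome 13, positions 58806472 to 59133970). It is the longest member, at 327499 bp, and had 5 regions. The one at its start, at positions 58806412 to 58806557, had its summit 45 bp inside the outermost end and 52 bp upstream of the curated start. It had 14 tags (7.65 to 23.5), a fold enrichment of 6.62 and a −log10 q of 7.38, rank 5936. Regions of 12 tags (6.20 to 21.0) and 9 tags (4.12 to 17.1) lay inside the gene, 60203 and 53746 bp from its far end. Regions of 13 tags (6.92 to 22.2) and 18 tags (10.7 to 28.4) lay beyond that end, by 10408 and 11939 bp. The pileups of the 5 regions had intervals that overlap one another. Of the 500 genes nearest to Ntrk2 in length, 12.2% had as many regions inside or within 100 kb, and 11.8% had as many inside.

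**Figure D3:**
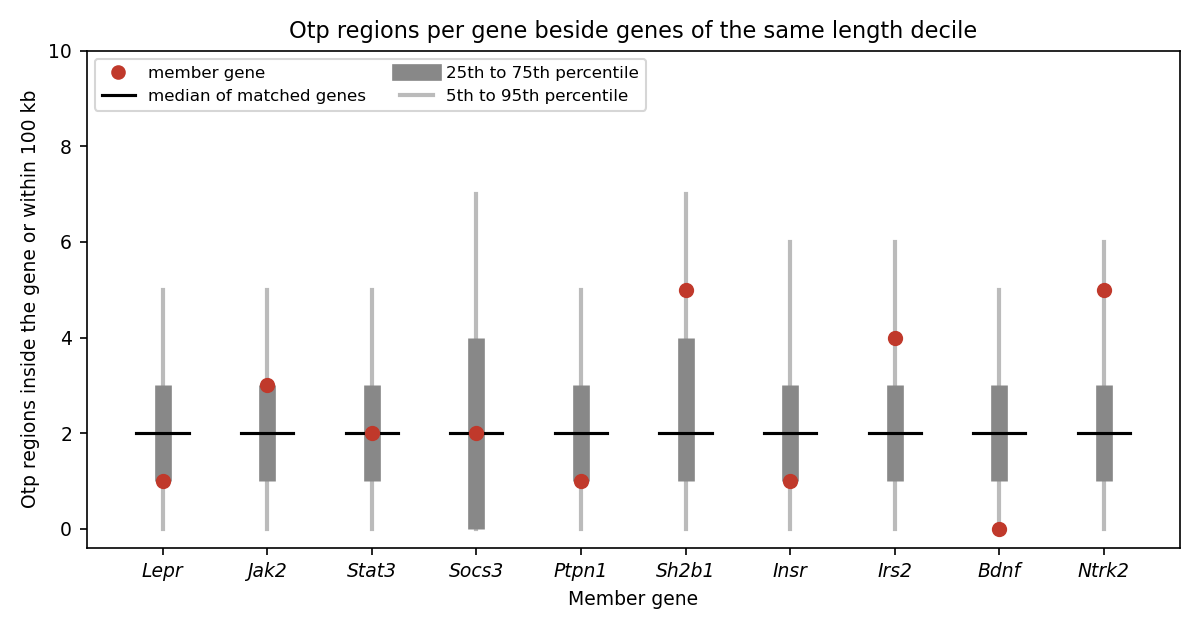
Number of Otp regions inside each gene or within 100 kb, as red points, over the median (black line), the 25th to 75th percentile (thick bar) and the 5th to 95th percentile (thin bar) of genes in the same length decile. The median of matched genes is 2 for every member. Sh2b1 and Ntrk2 have 5, below the 95th percentile, and Bdnf has 0. The 5th percentile is 0 for every member, so no count can lie below it.

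Within 100 kb the 10 genes had 0 to 5 regions, and no count lay above the 95th percentile of genes of its own length. The 5th percentile was 0 for every member, so no count could lie below it. Counts of 0 to 1 were found at Lepr, Ptpn1, Insr and Bdnf, and counts of 4 to 5 at Sh2b1, Irs2 and Ntrk2. In the leptin group, 2 of 6 genes had a region at an end. In the insulin and BDNF groups it was 1 of 2 each. The shares in the same length deciles were 31.1%, 30.1% and 30.6%, and no difference between the groups was tested.

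CpG content of the promoter was compared because the regions at member starts lay in GC-rich sequence. Promoters with many CpGs in the 250 bases before the start had an Otp region within 1 kb far more often than those with few. The share was 0.569% (95% exact binomial interval 0.246 to 1.12%) of the 1406 promoters with 0 CpGs, 27.5% (25.4 to 29.6%) at 7 to 9, and 54.4% (52.2 to 56.6%) at 18 to 21. At 28 or more it was 42.9% (40.7 to 45.0%). The 5 member starts with a region had 13 to 37 CpGs: 13 at Stat3, 19 at Ntrk2, 26 at Socs3, 34 at Irs2 and 37 at Jak2. The 12 without had 1 to 41, the highest at Ptpn1. The 7 Bdnf starts had 1 to 13, and the 2 Lepr starts 10 each. Among genes in the same CpG bin as each member, 41.8% had a region at an end, close to the 4 of 9 members with a curated start.

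**Figure D4:**
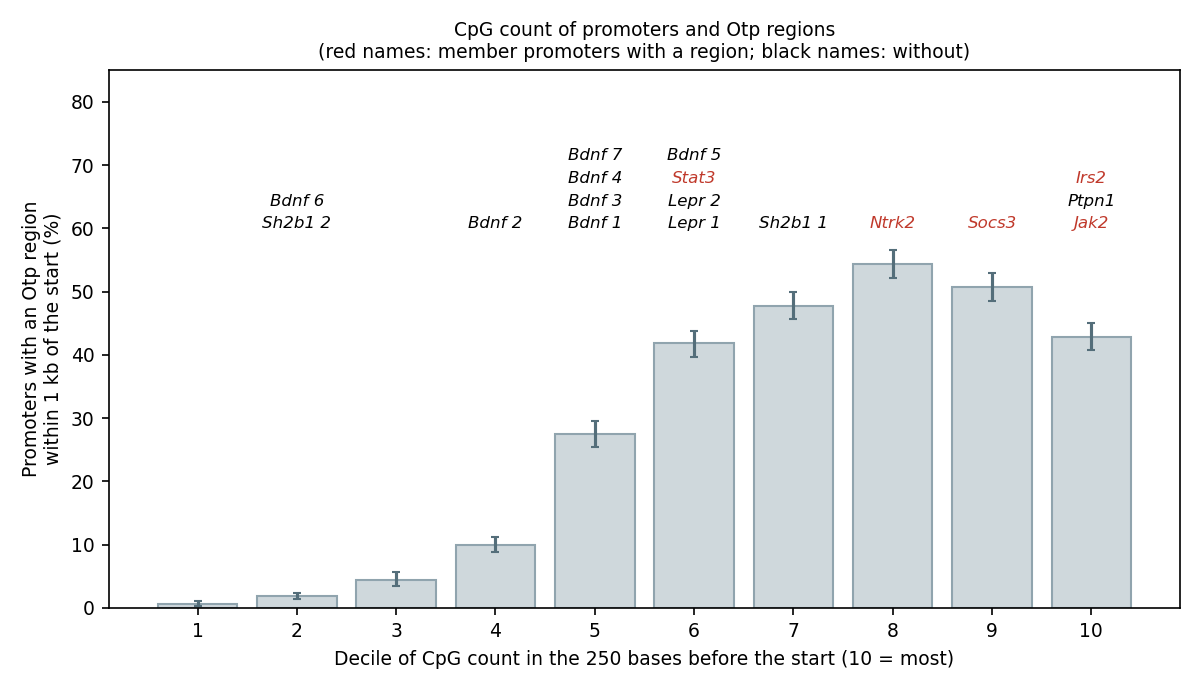
Share of promoters with an Otp region within 1 kb of the curated start, in percent, by decile of CpG count, with 95% exact binomial intervals. Tied counts share a bin, so bins differ in size. Member promoters are named above their bin, in red where a region lay within 1 kb, and numbers tell the starts of a gene apart in the direction of transcription. The red names are in the bins of 10 to 13 CpGs and above.

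The depth of the IgG library limits what its empty list shows at these genes. Genome-wide background differed by a ratio of 5.86, with 0.512 tags for Otp against 0.0873 tags for IgG. Scaled by it, the 24 pileups correspond to 1.19 to 8.87 IgG tags, and the weakest IgG region with a pileup had 4. Just 4 regions reached 4 tags: the one at the Stat3 start (6.31), and those at Leprot (8.87), Nfatc2ip (7.16) and Tufm (4.09). The other 20 stayed below 4 tags, the starts of Jak2 (1.88), Irs2 (2.39) and Ntrk2 (2.39) among them. Scaled by the median ratio of 0.305 at regions present in both lists, 12 of the 24 reached 4 tags. This ratio was taken only where IgG signal was high enough to be listed, so it can overstate the IgG tags elsewhere. By that ratio the starts of Irs2 and Ntrk2 came to 4.27 tags each and that of Jak2 to 3.36. The Jak2 start thus stayed below 4 tags under either scaling, and those of Irs2 and Ntrk2 only under the scaling by background. Their pileups of 11, 14 and 14 tags had overlapping Poisson intervals, 5.49 to 19.7 at Jak2 and 7.65 to 23.5 at the others. The 4 tags are only the weakest IgG region, so whether a difference from IgG was detectable at these starts is not settled.

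Of 62 other genes of the 3 pathways, 30 (48.4%) had an end with an Otp region. In the same length deciles the share was 31.4%, and for the 48 with a curated start it was 42.8% in the same CpG bins, against 25 of these 48. None of the 62 had an IgG region at an end, against 0.379% of all genes. These pathway lists were chosen with earlier results of these data known, so the differences are not independent evidence. No test was made of the differences.

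Of the 23 insulin and PI3K-AKT genes, 13 had a region at an end, against 31.5% in the same length deciles. With a curated start it was 13 of 21, against 42.8% in the same CpG bins. The highest fold enrichment was 15.1 at Mtor, the growth-control kinase, with 39 tags (27.7 to 53.3). It was followed by the PI3K catalytic and regulatory subunit genes Pik3ca (10.9) and Pik3r1 (10.1) and the S6 kinase gene Rps6kb1 (10.1), with 23 tags each (14.6 to 34.5). Of the 16 leptin and JAK-STAT genes, 7 had one, against 31.7% by length. With a curated start it was 5 of 13, against 41.3% by CpG bin. Here Cish, a feedback inhibitor related to Socs3, had a fold enrichment of 9.03 and 16 tags, the kinase Tyk2 8.64 and 17 tags, and the adaptor Grb2 7.50 and 16 tags.

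Of the 23 BDNF and neurotrophin genes, 10 had one, against 31.2% by length. With a curated start it was 7 of 14, against 44% by CpG bin. The adaptor Shc3 had a fold enrichment of 8.67 and 19 tags, and Map2k1, a kinase of the MAP kinase cascade, had 8.43 and 18 tags. Frs2, an adaptor of TrkB, had 7.57 and 14 tags. Peak lists do not measure expression, so they give no direct check of the labelled tissue. Among 8 markers of PVN neurons, Pou3f2, Trh and Sim1 had a region at an end, and Otp, Avp, Oxt, Crh and Slc17a6 had none there. An Otp region lay inside 2 of the 8, against 18.9% of all protein-coding genes, and an IgG region inside 1. Regions at an end were found at 3 of 5 markers of neurons, 0 of 5 of astrocytes, 1 of 5 of oligodendrocytes and 0 of 5 of microglia. Shares in the same CpG bins cover only markers with a curated start. For these it was 3 of 7 of PVN neurons (against 36.5%) and 2 of 4 of neurons (30.9%). It was 0 of 4 of astrocytes (11.6%), 0 of 2 of oligodendrocytes (26.6%) and 0 of 3 of microglia (6.73%).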

How the data were processed

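Each sample has 1 peak list, called per sample. The submitters' processing notes name MACS2, Bowtie2, Trimmomatic, SAMtools and Picard and the build mm10. Their settings, and any control library in the calling, were not stated there. Fold enrichment, −log10 p and −log10 q were used as the authors deposited them, to rank and describe regions. Fold is the ratio of the pileup to the caller's background, with 1 added to each. The deposited display score repeats the −log10 q and was not used. Total depth is unknown. The lists held 11379 Otp and 291 IgG regions.

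Pileups were computed from fold and −log10 p, as MACS2 defines them, where a whole number matched within 0.001 and the next missed by over 0.005. This gave 98.3% of Otp and 90.0% of IgG regions. The calculation was tested on simulated data. Genome background is the lowest background shared by at least 3 regions. The ratio at shared regions comes from 226 IgG regions with both pileups. Poisson and exact (Clopper-Pearson) binomial intervals cover counting error only, since PCR copies are not independent molecules.

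Summits were assigned to genes of the RefSeq table of GRCm38.p6, and overlap means at least 1 bp. Starts, strands and sequences came from the RefSeq promoter table, which held 9 of the 10 members. The members and lists were chosen with earlier results of these data known. Named were all members, the genes nearest to their regions, and up to 4 genes per pathway list by fold, of which some are not reported here. CpG matching and the scaled threshold were chosen after seeing the data. Python 3.11.15, numpy 2.4.6, pandas 2.3.3 and scipy 1.17.1 were used.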

Additional observations from a re-analysis of the deposited data

How the results depend on the processing

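Of 33 alternative values, 16 stayed within 1.5 times the reported count or, for a share, within its binomial interval, and 17 did not. The 24 Otp regions assigned to the 10 genes became 12 with −log10 q from 5 up, 6 from 10 up, 11 with a flank of 10 kb and 4 among regions scaling to at least 4 IgG tags by background, or 12 by the ratio at shared regions. Genes with a region at an end fell from 4 to 1 (Stat3) with −log10 q from 10 up and to 1 with the threshold scaled by background, but to 3 (Stat3, Irs2 and Ntrk2) with that scaled by the ratio at shared regions. Genes with a region inside fell from 4 to 1 (Ntrk2) with −log10 q from 5 up and to 0 from 10 up. Genes with either fell from 6 to 3 and 1 at these thresholds. As deposited and without matching on length, 18.9% of all protein-coding genes had a region inside and 35.3% had either. The matched share of 30.8% was 27.2% without matching, 24.7% matched on neighbouring gene ends, 26.3% and 15.2% with −log10 q from 5 and from 10 up, and 41.8% matched on CpG count. Pathway genes with a region at an end fell from 30 to 13 from 10 up. The cause of these moves was not tested beyond the fewer regions a stricter threshold leaves. The alternatives for the 0 IgG regions were all stricter and could not change that count, so they are left out of these numbers. Leaving out Otp regions that overlap an IgG region is among the 16. It could not change the 24 either, since 0 of them overlapped one. Total depth is unknown. No paired analysis was possible because each antibody has 1 library, and none could be left out.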

Other observations

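Several regions at the signalling genes lay at ends of long non-coding RNA genes, chosen for mention after their values were seen. At Ntrk2, the region 60203 bp from the far end of the gene lay 53 bp from an end of Gm53063, and both regions past that end lay 119 and 74 bp from an end of Gm34307. At Irs2, the most distant region lay 313 bp from 3930402G23Rik. Near Sh2b1, the region 5189 bp from an end of Atxn2l lay 196 bp from 4930456A14Rik. Of the 14 regions at these genes over 1 kb from any protein-coding end, these 5 lay within 1 kb of a non-coding gene end. Over the whole Otp list it was 605 of 5827 (10.4%, 95% exact binomial interval 9.61 to 11.2%). The 14 share a few loci and are not independent.

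Irs2 and Ntrk2 stand in gene-poor stretches with no end of another protein-coding gene within 100 kb. Of the 1218 other genes of that kind, 2.87% had at least the 4 regions of Irs2 and 1.31% at least the 5 of Ntrk2. Bdnf is of the same kind and had 0. These genes were not matched on length, and the difference was not tested. In the same length decile, 24.4% of genes had as many regions as Irs2 and 10.3% as many as Ntrk2. The Irs2 regions away from its start had 7 to 9 tags, near the smallest listed pileup of 6.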
